A study of Mus musculus with 7 samples.

Results

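Genes for proteins of the spliceosome and for hnRNP proteins were examined on both strands in mouse brain and mouse kidney. They were chosen by symbol, as probe sets whose single gene symbol in the platform annotation begins with Hnrnp, Srsf, Sf3a, Sf3b, Pcbp, Snrp, Sfpq, Nono, U2af or Prpf, with Snrpn left out. The rule found 214 of the 50689 probe sets in the series, for 67 of 18278 named genes. The set was put forward because Sfpq, Pcbp2 and Sf3b2 rank very high on the reverse arrays, so those ranks are given below as a description and support nothing.

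Total RNA of whole dissected brain and of whole dissected kidney was hybridised to 7 Affymetrix arrays, with 1 array for each tissue and design. The early designs U74A and U74B hold probe sets in reverse orientation, which detect antisense RNA, and each was used once for brain and once for kidney. The sense strand of brain was measured with the later designs 430A and 430B, and that of kidney with their combined successor, the 2.0 version, which carries the probe sets of both. The labels give no strain, age, sex or number of animals, and no treatment beyond rinsing before extraction, so no value has a replicate error and no p-value is given.

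The spliceosome removes introns from pre-mRNA. Sm proteins form a ring on small nuclear RNAs. U2AF and the SF3 complexes recognise the 3′ end of the intron and the branch site. Many Prpf proteins carry the assembled machine through activation and catalysis. SR proteins mostly promote and hnRNP proteins often restrain the use of an exon, and neurons and epithelia differ in the balance of such regulators. Sfpq and Nono, a pair of nuclear proteins of paraspeckles, and the poly(C)-binding proteins, which hold RNA through KH domains, act in splicing and in other steps of RNA life.

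The tissues carried their own markers on the sense arrays. All 7 neuronal markers were higher in brain by 2-fold or more, and ranked there at percentile 90.8 or above but in kidney at percentile 54.2 or below. All 6 proximal tubule markers and all 5 markers of the loop and distal nephron were higher in kidney. All 3 measured oligodendrocyte markers and 2 of 3 astrocyte markers were higher in brain by 2-fold or more. Of 2 measured podocyte markers 1 was higher in kidney and 1 was below the signal floor used for the sense arrays. Of 4 measured blood and immune markers 1 was higher in brain and 3 were below that floor. Markers of other cells were present too. The 3 pituitary markers summed to 12689.8 in brain and 88.1 in kidney, and the 2 fat markers to 28.8 in brain and 5605.2 in kidney. Both measured markers of dividing cells were higher in kidney, with a summed signal of 71.6 in brain and 1590.2 in kidney. The part of such cells in the results below was not tested, and in whole tissue fewer cells of a type and less RNA per cell cannot be told apart.

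On the reverse arrays 22 probe sets belonged to 16 of the 67 genes. Their signals ran from 1.5 to 3932.6 in brain and from 2.1 to 2323.3 in kidney. A probe set was read only where it passed a floor in at least 1 tissue, the higher of both arrays' 75th percentiles (63.5 on U74A and 98.5 on U74B). Of the 22, 7 passed, which is 31.8%, beside 30.2% of all 5652 reverse probe sets. These were 5 of 14 on U74A, where 27.7% of all passed, and 2 of 8 on U74B, where 32.3% did. The median rank of all 22 was percentile 58.3 in brain and 52.8 in kidney, so as a group they lay little above the middle of these arrays. The 7 belonged to 6 genes, of which Sfpq, Pcbp2 and Sf3b2 held the 3 brightest signals in both tissues.

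Sfpq, a partner of Nono in paraspeckles and a splicing factor, had the brightest reverse signal of the set. One of its reverse probe sets on U74B read 3932.6 in brain and 2323.3 in kidney, rank 2 in brain and rank 4 in kidney among 3041 probe sets. Its other probe set on U74B read 42.6 in brain and 7.1 in kidney. The one on U74A gave 2.9 in brain and 16.8 in kidney, and both of these probe sets were below the floor. The antisense reading of Sfpq thus rested on 1 of 3 probe sets. The ID of the bright one carries the mark _f_at, which Affymetrix gave to probe sets that may pair with several members of a sequence family.

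Pcbp2, a poly(C)-binding protein that also stabilises mRNA, had 1 reverse probe set, without such a mark. It read 1344.6 in brain and 1491.3 in kidney, rank 5 in brain and rank 3 in kidney among the 2611 probe sets of U74A. The tissues differed by a log2 ratio of brain over kidney of -0.15, smaller than the SD of 0.25 between repeat readings of the same brain RNA on 430A and 430B (98 probe sets). It was -0.19 with quantile normalization but -0.88 with the pair of arrays centred on its median, so the tissues cannot be called equal for Pcbp2. Sf3b2, a subunit of the SF3B complex at the branch site, read 681.1 in brain and 1059.8 in kidney by its brighter probe set, rank 26 in brain and rank 7 in kidney. Its second probe set read 85.8 in brain and 45.2 in kidney, where it lay below the floor. Both reverse probe sets of Sf3b2 are marked _f_at, and they pointed in opposite directions between the tissues, with log2 ratios of -0.64 and, as a lower bound, 0.43.

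The other reverse signals above the floor were lower. Hnrnpu, a large nuclear matrix protein that binds RNA and chromatin, read 219.4 in brain and 134.2 in kidney, which placed it at percentile 94.8 in brain and 95.7 in kidney. Snrpb, which encodes Sm proteins of the ring on small nuclear RNAs, read 138.9 in brain and 71.7 in kidney. The SR-related Srsf11 passed in kidney alone, at 5.6 in brain and 102.7 in kidney, just over the floor of 98.5, so that its ratio is held near 0 by the floor (log2 ratio -0.06).

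A probe set or gene was called for a tissue where its signal there was at least 2-fold that in the other. None of the 7 reverse probe sets was called for either tissue. Of all 1706 that passed the floor, 20.5% were called for brain and 5.28% for kidney. Of the 7, 5 lay on U74A, where these shares were 28.8% and 3.73%, and 2 on U74B, where they were 14.3% and 6.41%. The median log2 ratio of the 7 was 0.43, beside 0.33 for all that passed. The largest was that of Snrpb, 0.95 or 1.94-fold. Another scaling changed both the count and the direction. With each pair of arrays centred on its median, 0 of 9 were called for brain (background 10.1%) and 1 for kidney (8.75%), the brighter probe set of Sf3b2 at a log2 ratio of -1.37, and the median was -0.08. With quantile normalization 0 of 9 were called for brain (8.05%) and 1 for kidney (10.2%), again that of Sf3b2 at -1.03, and the median was -0.17. With the floor at the 50th percentile 2 of 16 were called for brain (23.3%) and 1, Srsf11, for kidney (10.4%). None was called with the floor at the 90th percentile (17.4% for brain and 4.5% for kidney) or among the 3 probe sets without a suffix mark (19.8% for brain and 3.71% for kidney).

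**Figure D1:**
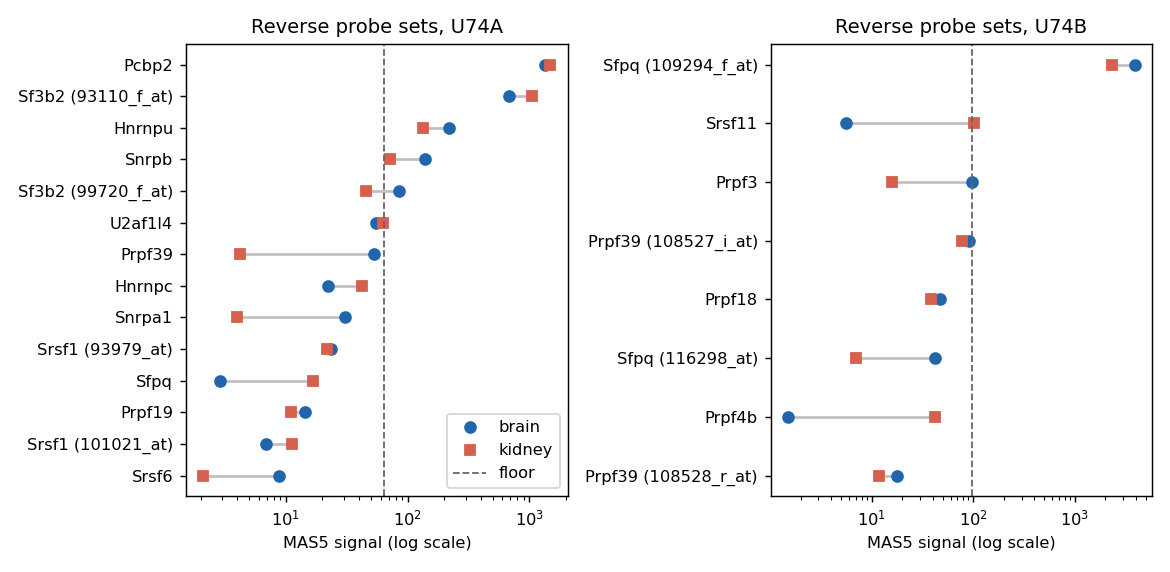
Antisense signals (MAS5, log axis) of the 22 reverse probe sets, in brain (circles) and kidney (squares), on U74A at left and U74B at right; each point is 1 array, the dashed line is the floor, and an ID tells probe sets of the same gene apart. Pcbp2, 1 probe set of Sf3b2 and 1 of Sfpq stand apart at 681.1 or above in both tissues, while 15 probe sets lie below the floor in both.

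Of the 15 reverse probe sets below the floor, 7 were those of Prpf genes. No reverse probe set of a Prpf gene passed, where 30.2% of all reverse probe sets did. Prpf3, a U4/U6 snRNP protein, read 98.2 in brain, just under the floor, and 15.9 in kidney. The 3 reverse probe sets of Prpf39, a factor of U1 snRNP function, read 90.5, 52.6 and 17.6 in brain and 77.7, 4.2 and 11.8 in kidney. The SR proteins Srsf1 and Srsf6 read at most 23.6 in brain and 21.9 in kidney. U2af1l4, a relative of the small U2AF subunit, came within reach of the floor of 63.5, at 55.3 in brain and 62.4 in kidney. Snrpa1, a U2 snRNP protein, read 30.7 in brain and 4 in kidney, and Hnrnpc, which binds uridine tracts, 22.4 in brain and 42.1 in kidney. The remaining Prpf signals were 47.1 in brain and 38.8 in kidney for Prpf18, a factor of the second catalytic step, 14.3 in brain and 11.1 in kidney for Prpf19, and 1.5 in brain and 42.1 in kidney for the kinase Prpf4b. No fold is given for these 15, since both tissues are below the floor.

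Genes that overlap on opposite strands can be read by the same reverse probes. By the RefSeq annotation of assembly GRCm38.p6, 14 of the 16 genes could be placed with a strand, and 5 of these (35.7%) overlapped a gene on the other strand, beside 30.0% of 2300 genes with a reverse probe set. Pcbp2 overlapped Map3k12, a kinase of stressed axons, and the noncoding Gm36331, and Hnrnpu overlapped Cox20, an assembly factor of cytochrome oxidase. Prpf39 overlapped Fkbp3, Prpf4b the noncoding Gm36839 and U2af1l4 the gamma-secretase subunit gene Psenen. Sfpq, Sf3b2 and Srsf11, which also passed the floor, overlapped none. Whether a reverse probe set lies within the overlap was not tested.

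On the sense arrays all 67 genes passed the floor in 1 or both tissues, and they ranked high. Each gene was read from its highest ranked probe set, by the mean of its brain and kidney percentiles, and the median gene stood at percentile 86.7 in brain and 92.2 in kidney, beside 61.5 in brain and 66.3 in kidney for all 18193 genes. Brain signals were first centred on kidney within each design, and the floor was then 186.4 on 430A and 28.6 on 430B in units of the kidney array, so a fold after centring differs from the ratio of the signals printed beside it. Of the 67 genes, 5 were called for brain (7.46%), 22 for kidney (32.8%) and 40 for neither. The calls over all 12913 genes that passed came to 18.2% for brain and 26.4% for kidney. The median log2 ratio was -0.39, beside -0.08 for all genes, with 26 ratios above 0 and 41 below and a range of -3.35 to 1.64. Tissue and array type cannot be told apart in this comparison.

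The Snrp genes, for Sm proteins and other snRNP proteins, had the lowest median of the classes. Of 8 genes, 5 were called for kidney and 1 for brain, beside 26.4% and 18.2% of all genes. The median log2 ratio was -1.62. Snrpe, an Sm core protein, read 517.1 in brain and 4981.5 in kidney, 5.38-fold higher in kidney after centring. Snrpg, another protein of the Sm ring, read 492.1 in brain and 2728.4 in kidney (3.09-fold), and Snrpb2, a U2 snRNP protein, 132.2 in brain and 726.4 in kidney (3.07-fold). Every probe set above the floor of Snrpg and of Snrpb2, 2 each, was called higher in kidney. Snrpb (853.4 in brain and 2055.4 in kidney, 10.2-fold) and Snrpf (353 in brain and 647.8 in kidney, 7.78-fold) were read on 430B. A second probe set of Snrpb, on 430A, read 478.8 in brain and 1216.7 in kidney, a log2 ratio of -0.50. Snrpd3, called 3.12-fold higher in brain at 332.6 in brain and 191 in kidney, had a second probe set 4.82-fold higher in kidney, at 138.5 in brain and 1196.4 in kidney, so that its direction is unsettled.

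Few genes of the branch site were called. Of 12 genes named Sf3a, Sf3b or U2af, 11 lay within 2-fold and the median log2 ratio was 0.00. Over all genes 26.4% were called for kidney and 18.2% for brain. By this reading the exception was Sf3b5, a small SF3B subunit, at 970.8 in brain and 1898.5 in kidney (8.30-fold higher in kidney) by its 430B probe set and 190.1 in brain and 997.3 in kidney (2.93-fold) by a 430A probe set. Sf3b6, the SF3B subunit that contacts the branch site, read 443 in brain and 1432.2 in kidney (1.80-fold higher in kidney) by its highest ranked probe set. Its other probe sets above the floor were both called for kidney, at 298.5 in brain and 2344.5 in kidney (4.38-fold) and at 180 in brain and 1733.9 in kidney (5.38-fold). U2af2, the large U2AF subunit that binds the polypyrimidine tract, read 423.2 in brain and 615.6 in kidney, a log2 ratio of 0.30 after centring. U2af1, the small subunit that reads the end of the intron, read 410 in brain and 889.7 in kidney (-0.28). The lowest mean rank of this class was that of Sf3a3, at percentile 57.8 in brain and 82.9 in kidney.

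Among the 12 Prpf genes 9 lay within 2-fold, with a median log2 ratio of 0.23. Called for kidney were 2 and for brain 1, beside 26.4% and 18.2% of all genes. Prpf8, the large scaffold at the catalytic centre, read 819.3 in brain and 1346.2 in kidney, a log2 ratio of 0.13. Prpf40b, a homologue of a yeast U1 snRNP protein, exceeded kidney in brain by a factor of at least 2.29 (237.9 in brain and 102.3 in kidney, where it lay below the floor). Prpf38a was at least 2.02-fold higher in kidney, at 72.4 in brain and 375.9 in kidney, but a second probe set on 430B ran towards brain, at 191.1 in brain and 28.3 in kidney (log2 ratio of 0.65 or more). Prpf19, a ubiquitin ligase of spliceosome activation, was called 4.82-fold higher in kidney by a 430B probe set (3338 in brain and 3796.5 in kidney), while its 3 probe sets on 430A had log2 ratios of -0.10, -0.36 and -0.40. The lowest mean rank was that of Prpf31, at 158.7 in brain and 52.5 in kidney.

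Of 10 SR protein genes 3 were called for kidney, near the 26.4% of all genes, and none for brain, beside 18.2%. Srsf3, the smallest SR protein, read 318.7 in brain and 1966 in kidney, 3.44-fold higher in kidney, and 4 of its 6 probe sets above the floor were called so. Srsf1, a prototype of the family, read 440.6 in brain and 2639.4 in kidney (3.34-fold), but its 6 probe sets above the floor included 1 called higher in brain, at 500.4 in brain and 165.1 in kidney. Srsf6 was 3.84-fold higher in kidney by its 430B probe set, and 1 of its 430A probe sets was 2.27-fold higher in brain (631.1 in brain and 499 in kidney). Another on 430A read 529 in brain and 1626.4 in kidney (log2 ratio -0.78). After centring it was brighter than the 430B probe set, at 947.9 against 328.2 in brain and 1626.4 against 1259.9 in kidney. Srsf5, the highest ranked of the class, read 1538.6 in brain and 2494.6 in kidney, a log2 ratio of 0.14 after centring. Srsf12 was the lowest ranked, at 242.3 in brain and 27.6 in kidney. Its ratio towards brain, 1.99-fold or more, is held by the floor just short of a call.

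The hnRNP genes, the largest class, held the largest number of calls. Of 19 genes 8 were called for kidney and 1 for brain, beside 26.4% and 18.2% of all genes. The median log2 ratio was -0.64. Hnrnpf, which binds G-rich RNA, read 313 in brain and 4247.2 in kidney, 7.57-fold higher in kidney, and all 4 of its probe sets were called higher there. Hnrnpab, which has a pair of RNA recognition motifs, read 596.5 in brain and 4777.2 in kidney (4.47-fold), and all 5 of its probe sets above the floor were called higher in kidney. Among the 67 these were the genes with the largest number of probe sets all called for the same tissue. Hnrnpk, a KH domain protein, was the highest ranked of the class, at 1321.7 in brain and 6053.7 in kidney (2.56-fold). Hnrnpul1 read 443.1 in brain and 1941.4 in kidney (2.45-fold), and Hnrnpr, which binds neuronal mRNAs among others, 371.1 in brain and 1860.3 in kidney (2.80-fold). Hnrnpd, which binds AU-rich elements of mRNAs, was 2.75-fold, Hnrnpa0 5.35-fold and Hnrnph2 2.01-fold higher in kidney. Of the probe sets above the floor, 2 of 5 for Hnrnpr, 1 of 2 for Hnrnpd and 1 of 4 for Hnrnpk were called for kidney, and none for brain. Short of a call, 1 of Hnrnpr ran towards brain at a log2 ratio of 0.95 or more and 1 of Hnrnpk at 0.30. Without suffix-marked probe sets the log2 ratios were -0.21 for Hnrnpr, -0.005 for Hnrnpd and -0.94 for Hnrnpk, all under 2-fold. Hnrnpul2 was 2.04-fold higher in brain, at 923.3 in brain and 809.2 in kidney, but its other probe set ran towards kidney, at 137.4 in brain and 411 in kidney (log2 ratio -0.74). The lowest ranked was Hnrnph3, at 183.8 in brain and 298 in kidney.

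Of the 4 genes for poly(C)-binding proteins, 2 were called for brain and 1 for kidney by their highest ranked probe sets, beside 18.2% and 26.4% of all genes. Pcbp4 read 924.2 in brain and 685.6 in kidney by its highest ranked probe set, 2.42-fold higher in brain after centring. Its other probe sets read 627.8 in brain and 174.9 in kidney (6.04-fold or more) and 607.4 in brain and 178 in kidney (5.84-fold or more), so all 3 were called higher in brain, the only gene of the 46 with several probe sets above the floor for which that held. All 3 carry a suffix mark, so Pcbp4 has no value without such probe sets. As deposited, the log2 ratio of the highest ranked was 0.43. Pcbp3 was 2.30-fold higher in brain, at 597.8 in brain and 465.5 in kidney, with a second probe set at a log2 ratio of 0.35. By the median over its probe sets the log2 ratio of Pcbp3 was 0.78, and as deposited it was 0.36, both under 2-fold. Pcbp1, an intronless gene, read 881.2 in brain and 3608.5 in kidney, 2.29-fold higher in kidney. Pcbp2 read 1268.6 in brain and 4261 in kidney, a log2 ratio of -0.91. Of its other probe sets, 1 was called for kidney (-1.03) and 1, on 430B, for brain (2.09 or more). Sfpq and Nono were both called for kidney, beside 26.4% of all genes. Sfpq read 308.9 in brain and 1292.9 in kidney (2.34-fold) and Nono 596.2 in brain and 2905.2 in kidney (2.72-fold). Of their probe sets above the floor, 3 of 6 for Sfpq and 2 of 3 for Nono were called for kidney.

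**Figure D2:**
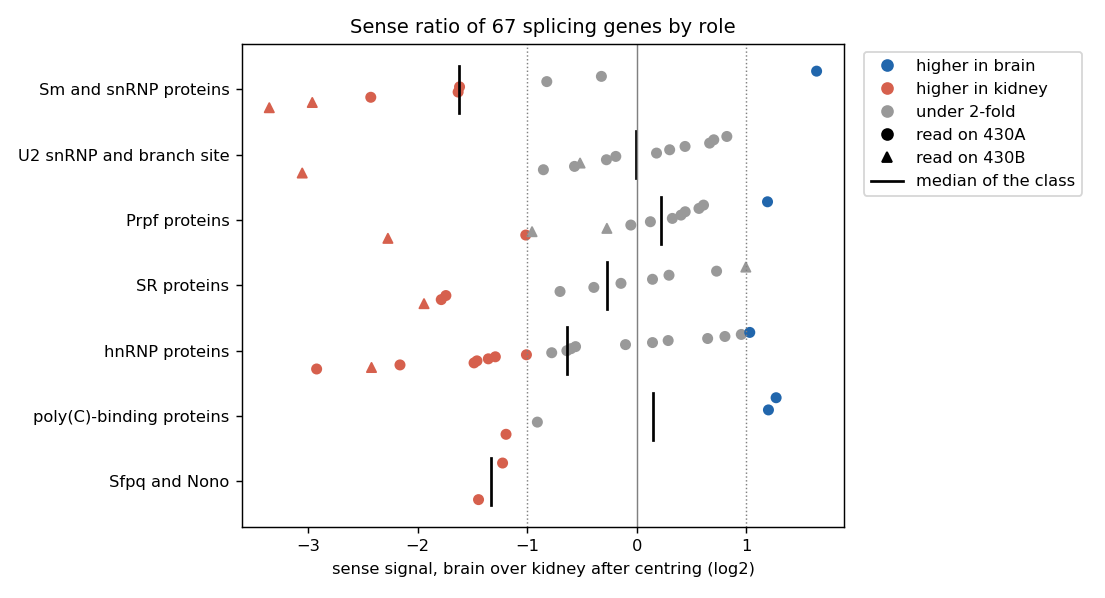
Sense log2 ratio of brain over kidney after centring, for each of the 67 genes by role class; circles were read on 430A and triangles on 430B, the black bar is the class median, dotted lines mark 2-fold and each point is 1 probe set on 1 array per tissue. The class of Sm and snRNP proteins lies furthest towards kidney (median -1.62), the branch site class centres on 0, and 5 genes pass 2-fold towards brain.

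Probe sets of the same gene often gave different tissue ratios, and this bounds what a single ratio shows. Over the 46 genes with more than 1 probe set above the floor, the SD within a gene was 1.08 on the log2 scale, beside 1.04 for all 5632 such genes and 0.25 for the technical repeat. Within 1 array design it was 0.93, so the spread was not only that between 430A and 430B. In 7 genes, Hnrnpdl, Pcbp2, Sf3b1, Sf3b2, Snrpd3, Srsf1 and Srsf6, some probe sets were called higher in brain and others in kidney. Hnrnpdl, an hnRNP D relative, ran from 550.7 in brain and 1022.9 in kidney (log2 ratio -2.98, on 430B) to 825.2 in brain and 241 in kidney (2.62, on 430A). Sf3b1, the largest SF3B subunit, ran from -3.56 on 430B to 1.49 on 430A. By contrast every probe set above the floor was called higher in kidney for 5 genes (Hnrnpab, Hnrnpf, Sf3b5, Snrpb2 and Snrpg) and none passed 2-fold either way for 13 genes. Such counts were not made over all 5632 genes, so whether they are high or low for these 46 cannot be said.

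**Figure D3:**
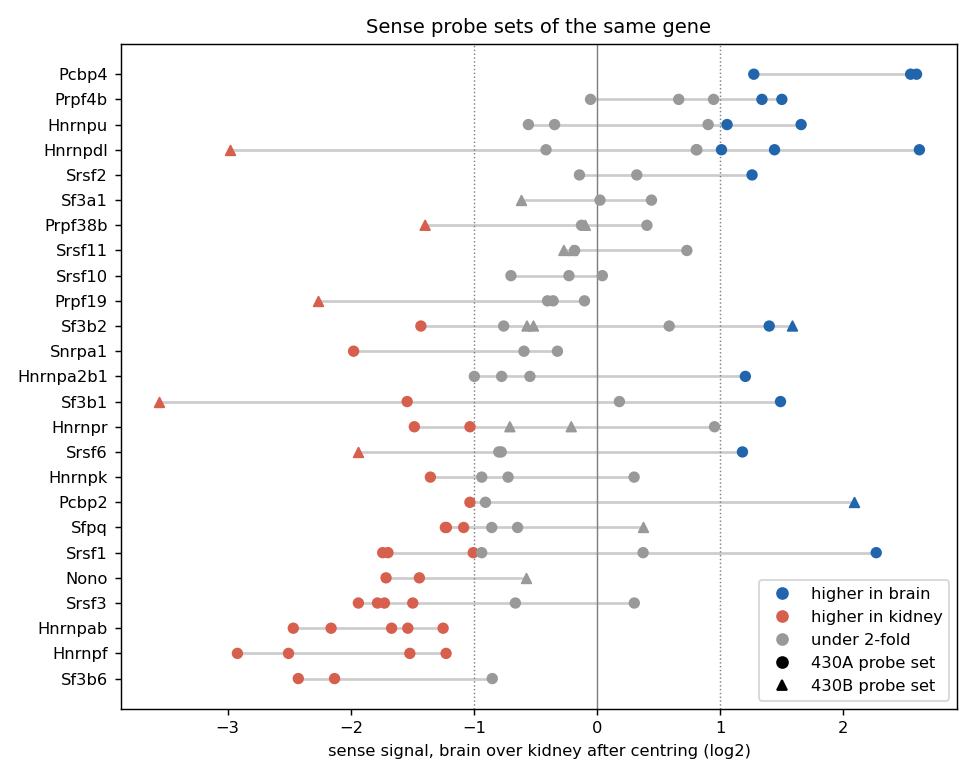
Sense log2 ratio of brain over kidney for every probe set above the floor, for genes with 3 or more such probe sets, ordered by the median of the gene; circles are 430A and triangles 430B probe sets, dotted lines mark 2-fold and each point is 1 array per tissue. Pcbp4 lies wholly beyond 2-fold towards brain and Hnrnpab and Hnrnpf wholly towards kidney, while Srsf1, Sf3b1, Sf3b2 and Hnrnpdl cross from kidney to brain.

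Counted by probe set, 24 of 171 were called for brain and 51 for kidney, beside 19.2% and 22.4% of all 26718 that passed. Of the 67 genes, 57 were represented on 430A, with 5 called for brain and 16 for kidney, where 19.2% and 20.2% of all genes were. The other 10 were represented on 430B, with none called for brain and 6 for kidney, where 16.9% and 34.7% of all genes were. The 6 kidney calls on 430B depended on how that array was centred. With 430B at the scale of 430A the log2 ratio was -1.76 for Snrpb, -1.36 for Snrpf and -1.46 for Sf3b5, still 2-fold or more, but -0.82 for Hnrnpa0, -0.67 for Prpf19 and -0.34 for Srsf6. As deposited only Snrpb stayed past 2-fold among these 6, at -1.27. With quantile normalization 9 were called for brain and 17 for kidney (background 19.6% and 23.1%), and the median was -0.09 beside -0.07 for all genes, so that the distance of the whole group from other genes rested on the scaling.

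The balance of calls under the other settings, each with its background, was as follows. With signals as deposited 3 genes were called for brain (24.2% of all genes) and 30 for kidney (26.6%). With 430B held at the scale of 430A, 7 were called for brain (26.6%) and 19 for kidney (15.7%). A floor at the 75th percentile left 54 genes, with 3 calls for brain (12.6%) and 20 for kidney (27.9%). Taking the median over the probe sets of each gene gave 3 for brain (16.2%) and 15 for kidney (23%). Leaving out suffix-marked probe sets left 57 genes, with 5 for brain (19.1%) and 15 for kidney (24.8%). With 430A alone there were 62 genes, with 5 for brain (19.4%) and 18 for kidney (19.7%). Calls for kidney outnumbered those for brain under each of these settings, by the least with quantile normalization. Over all genes they did so too, except with 430B at the scale of 430A. The kidney share of the members was near background in some settings. It was 22.4% beside 23% with the median over probe sets and 26.3% beside 24.8% without suffix-marked ones. With quantile normalization it was 25.4% beside 23.1%.

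Promoters are shown for the 3 genes whose probe sets above the floor were all called higher in kidney and that have a single start in the RefSeq table of assembly GRCm38.p6, from 250 bases before to 50 bases after the start. Capitals mark matches, on either strand, to the TATA box, the CCAAT box, the GC box and the motifs of ETS factors, NRF1 and YY1, described below. Hnrnpab lies on the minus strand at chr11:51606832-51607131, Snrpb2 on the plus strand at chr2:143062819-143063118 and Snrpg on the plus strand at chr6:86371290-86371589.
Hnrnpab: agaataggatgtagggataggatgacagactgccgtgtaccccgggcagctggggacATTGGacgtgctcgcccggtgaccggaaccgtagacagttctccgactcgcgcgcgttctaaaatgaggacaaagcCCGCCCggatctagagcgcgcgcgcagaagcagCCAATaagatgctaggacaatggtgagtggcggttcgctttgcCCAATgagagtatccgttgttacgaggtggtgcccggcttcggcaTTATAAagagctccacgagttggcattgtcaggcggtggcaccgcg
Snrpb2: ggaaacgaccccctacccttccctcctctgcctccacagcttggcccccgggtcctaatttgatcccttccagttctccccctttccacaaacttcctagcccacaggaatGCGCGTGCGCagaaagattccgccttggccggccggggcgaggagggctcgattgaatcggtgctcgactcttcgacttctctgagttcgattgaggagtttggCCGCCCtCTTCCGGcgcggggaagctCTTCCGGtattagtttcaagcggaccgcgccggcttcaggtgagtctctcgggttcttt
Snrpg: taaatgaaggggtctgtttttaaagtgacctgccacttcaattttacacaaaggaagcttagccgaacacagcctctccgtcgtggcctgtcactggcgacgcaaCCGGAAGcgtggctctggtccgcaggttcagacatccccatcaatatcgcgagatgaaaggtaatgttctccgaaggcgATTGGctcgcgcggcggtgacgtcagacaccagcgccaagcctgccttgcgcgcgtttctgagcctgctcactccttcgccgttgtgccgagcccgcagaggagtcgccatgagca

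The windows differ in what they hold. That of Hnrnpab has 3 CCAAT boxes, 1 GC box and a TATA match read on both strands of the same letters. That of Snrpb2 has 2 ETS motifs, 1 GC box and 1 NRF1 motif, and that of Snrpg 1 ETS motif and 1 CCAAT box. The table holds 76 promoters for 58 of the 67 genes, 21263 for protein-coding genes and 32851 in all. The ETS motif, searched as CCGGAAG, was in 35.5% of the 76, beside 11.6% of protein-coding promoters and 8.86% of all. The NRF1 motif, given here by name alone, was in 21.1%, beside 6.38% of protein-coding promoters and 4.6% of all. The GC box, searched as GGGCGG, was in 65.8%, beside 46.2% of protein-coding promoters and 35.7% of all. The CCAAT box, searched by these letters, was in 50%, beside 38.2% of protein-coding promoters and 37.4% of all. A TATA box, searched as TATAA, was in 10.5%, beside 21.9% of protein-coding promoters and 24.9% of all. The YY1 motif, searched as AAGATGGCG, was in 2.63%, beside 1.83% of protein-coding promoters and 1.40% of all. These windows were richer in G and C, with a median of 60.5% and 25.5 CG pairs against 56.3% and 13 for protein-coding genes, and the part of base composition in these shares was not tested. A match is a description of the letters and not of a bound site.

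Antisense and sense ranks could be set side by side for the 16 genes with a reverse probe set, as percentiles within each array. In brain the median was at percentile 66.1 for antisense and 92.5 for sense, and in kidney at 72.8 for antisense and 93.4 for sense. Over all 2830 genes with both strands the medians were 55.3 for antisense and 69.8 for sense in brain, and 54.8 for antisense and 77.2 for sense in kidney. Antisense rank exceeded sense rank in 7 of the 16 genes in brain (43.8%, beside 38.4% of all genes) and in 5 in kidney (31.2%, beside 29.3%). Sfpq, Pcbp2 and Sf3b2, for whose reverse ranks the set was put forward, are among them in both tissues. These shares and medians are thus a description and support nothing. A gene with several reverse probe sets was read from its highest ranked one. Binding strength differs between probes and is not removed by ranks.

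High sense rank went with both high and low antisense rank. Pcbp2 was near the top on both strands, at percentile 99.8 for antisense and 96.8 for sense in brain and at 99.9 and 98.9 in kidney. Prpf19 was at 40.8 for antisense and 99.7 for sense in brain and at 37.8 and 98.7 in kidney. Srsf6 ranked at 28.3 for antisense and 97.9 for sense in brain and at 6.38 and 94.7 in kidney. For Sfpq the antisense rank stood 20.2 percentile points above the sense rank in brain and 5.03 points in kidney. The brain gap rested on a sense probe set at percentile 79.7 of 430A. Another sense probe set of Sfpq ranked at 90.9 in brain, but within 430B, so these ranks are not on 1 scale. After centring the 430B probe set was the dimmer in brain, at 134.1 against 553.5. In kidney it ranked at percentile 65.1 against 94.9. For Sf3b2 in kidney the gap was 17.0 points, but it rested on a sense probe set at percentile 82.8, while another sense probe set of Sf3b2 ranked at 95.8. The tissue ratios of the strands also diverged for Sfpq, whose antisense log2 ratio of brain over kidney was 0.76 and whose sense log2 ratio was -1.22. Its sense probe set on 430B ran towards brain, at 0.37, and its other sense probe sets towards kidney.

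**Figure D4:**
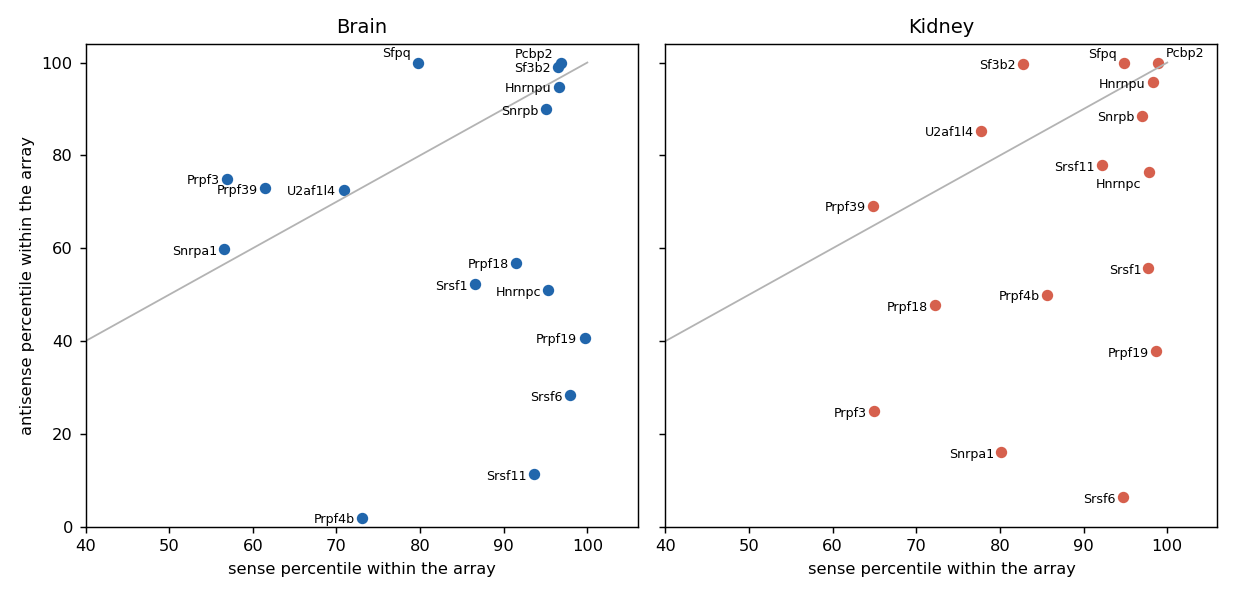
Antisense percentile (vertical) against sense percentile (horizontal, from 40) of the 16 genes with a reverse probe set, in brain at left and kidney at right; each point is 1 gene on 1 array per strand and the line marks equal ranks. Sfpq, Pcbp2 and Sf3b2 lie at the top in both tissues, while Prpf19, Srsf1 and Srsf6 have high sense and middle or low antisense ranks.

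Other splicing genes outside the symbol rule, from a fixed list of 105, were measured for 93, of which 88 passed the sense floor. Of these 7 were called for brain and 25 for kidney, where 18.2% and 26.4% of all genes were, and their median log2 ratio was -0.35. Ptbp2, the neuronal paralogue of the polypyrimidine tract-binding protein, read 676.8 in brain and 216.2 in kidney, 5.61-fold higher in brain. Wbp4 was at least 2.91-fold and Clk1, a kinase of SR proteins, 2.38-fold higher in brain. The 3 largest ratios towards kidney, under this centring, were those of Snrnp40, a U5 snRNP protein, at 100.9 in brain and 1804.5 in kidney (9.68-fold or more), Srrm2, a scaffold of nuclear speckles (9.52-fold), and Ppil1, a spliceosomal cyclophilin (6.43-fold). Srrm2 and Ppil1 were read on 430B, and their folds carry that array's shift of 2.08 on the log2 scale. As deposited, Srrm2 read 711.4 in brain and 1597.3 in kidney, and Ppil1 208.6 in brain and 316.3 in kidney. On the reverse arrays the list had 21 probe sets, 5 of them above the floor, beside 30.2% of all reverse probe sets. Of the 5, 1 was called for each tissue, beside 20.5% for brain and 5.28% for kidney over all that passed. Acin1 was called for brain, at 198.5 in brain and 90.7 in kidney (2.02-fold or more), and Dhx38, a helicase of the catalytic steps, for kidney (2.01-fold), at 102.5 in brain and 205.9 in kidney.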

How the data were processed

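Per the submitters' processing notes, the authors made each deposited intensity with MAS5, on a scale that is not logged. Per the labels, the U74 values are limited to probe sets that the Affymetrix mask marks as reverse. The scaling target and detection calls are not given in the sources used here, and a signal floor was used in place of such calls. Labelling began with 8 (brain) or 6.75 (kidney) micrograms of RNA, per the labels.

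Symbols came from the platform annotation at GEO, updated by gene identifier to RefSeq (GRCm38.p6); those with no symbol or more than 1 were left unnamed. The members and lists were chosen with earlier results of these data known. Antisense ratios used signals as deposited, with signals below the floor raised to it. Brain sense signals were centred on kidney by the median log2 ratio over the brighter probe sets (above the median on each array of the pair), a shift of -0.84 (430A) and 2.08 (430B); the 100 probe sets on both brain arrays were used once. "At least" marks a fold whose lower signal was under the floor. Named were all genes with a reverse probe set, all genes called on sense arrays, the highest and lowest ranked of each class and the 3 largest ratios each way of the other splicing genes. Genes named for unlike probe sets, U2af1, U2af2, Prpf8, Acin1 and Dhx38 were picked with their values in view. The precision is limited by the number of arrays, 1 per group.

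The calling steps were tested on simulated data, drawn from the measured signals with noise of the size of the technical repeat. Both arrays of a pair were drawn from the same brain array, and changes were put only into its brighter probe sets. Of 100 probe sets changed by 1.5 on the log2 scale, 97 were recovered on U74A (2611 probe sets), 99 on U74B (3041), 99 on 430A (22626) and 98 on 430B (22511). High recovery was built into this setting, which does not cover signals near the floor or differences between array designs. Python 3.11.15, numpy 2.4.6 and pandas 2.3.3 were used. Alternatives in scaling, floor, probe set choice and design are given in the closing section.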

Additional observations from a re-analysis of the deposited data

Results flagged for a closer look

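With 1 array per group, the strands were compared for genes whose brain over kidney log2 ratio ran in opposite directions on the antisense and sense arrays, each beyond 0.50, which is 2 SD of the technical repeat. That bound covers repeat readings only, and the SD between probe sets of the same gene was 1.08. These differences were not tested. For Snrpb the antisense ratio was 0.95 and the sense ratio -3.35, a difference of 4.31; with its 430A sense probe set the sense ratio was -0.50. For Sfpq the ratios were 0.76 and -1.22, a difference of 1.98, but its sense probe set on 430B was at 0.37. For Hnrnpu they were 0.71 and -0.56, a difference of 1.27, but 3 of the 5 sense probe sets of Hnrnpu ran towards brain, up to 1.66. After centring the U74 pairs on their medians, the antisense ratio of Hnrnpu was -0.02 and that of Snrpb 0.22, while that of Sfpq was 0.59. With quantile normalization they were -0.23 for Hnrnpu, 0.14 for Snrpb and 0.35 for Sfpq, so none of the 3 antisense ratios stayed beyond 0.50 under both scalings.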

How the results depend on the processing

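Among reverse probe sets the counts called for brain and for kidney, both 0, stayed at 0 with the floor at the 90th percentile and without suffix-marked probe sets. With the floor at the 50th percentile they were 2 and 1, and with median-centring or quantile normalization 0 and 1. The antisense median of 0.43 turned to -0.081 with median-centring, to -0.17 with quantile normalization and to -0.060 over the 3 probe sets without a suffix mark. The median antisense rank in kidney, percentile 52.8, was 38.1 without suffix-marked probe sets and 66.0 on U74A alone. The sense count of 5 genes for brain was 3 with signals as deposited, 9 with quantile normalization, 3 with the floor at the 75th percentile and 3 with medians over probe sets; the count of 22 for kidney lay between 15 and 30 under the 7 alternatives. The sense median of -0.39 was -0.89 with signals as deposited and -0.086 with quantile normalization. Scaling moved the median of all genes too, to 0.29 with 430B at the 430A scale and 0.02 as deposited, where the members' medians were -0.28 and -0.89. Of the 27 genes called on the sense arrays, Srsf6 turned to 0.14 as deposited and Snrpd3 to -0.31 with the median over its probe sets and -2.27 without suffix-marked ones. Under all 7 alternatives, of which leaving out suffix-marked probe sets and 430A alone were added for single genes after seeing the data, 5 kidney calls (Hnrnpab, Hnrnpf, Hnrnpul1, Snrpg and Srsf3) and 0 brain calls stayed at 2-fold or more in each. Signals as deposited undo the shift of -0.84 on 430A, where all 5 brain calls were read. The 5 then fell to between 0.19 and 0.97, so that setting alone left 0 for brain. Kidney calls read on 430A moved further towards kidney with it. Hnrnpul1 has 1 sense probe set, so settings that choose among probe sets could not change it. Snrpb was -0.50 on 430A alone, and Nono -0.58 without suffix-marked probe sets. Snrpb, Snrpe and Pcbp4 have suffix-marked probe sets only. The causes were not tested. No paired analysis was possible because each group holds 1 array. Signals near the floor limit what can be read on the reverse arrays, where 15 of 22 probe sets gave no ratio.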
